A study of Mus musculus with 34 samples.

Results

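The response of 8093 leukaemia cells to nilotinib was set against their response to lonafarnib at the midpoint of each drug course, when most cells had died. For each gene the change from start to midpoint was taken in each course, and the lonafarnib change was subtracted from the nilotinib change. The comparison rests on 12 of the 34 Affymetrix Mouse Gene 1.0 ST arrays of the study, chosen by their titles, with 3 arrays in each of 4 groups. The groups were 8093 with nilotinib at the midpoint (20 nM, day 3, 5 to 10% viable), its start (day 0, no drug), 8093 with lonafarnib at the midpoint (1 µM, day 4, 20% viable) and its start (day 0, no drug). The line 8093 is a single pre-B acute lymphoblastic leukaemia from a BCR/ABL transgenic mouse on an inbred C57BL/6J background. All groups, starts included, grew in medium with IL-3 over irradiated embryonic fibroblasts, and the cells taken were those floating or loosely attached. Midpoint RNA came from a larger dish or from pooled dishes, and arrays of a group came from separate plates. Dose, day and viability differ between the drugs and cannot be told apart from the drug. In bulk RNA, fewer cells of a type and less RNA per cell cannot be told apart either.

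BCR-ABL is an always active tyrosine kinase that drives STAT5, Ras-ERK and PI3K signalling, and nilotinib blocks its ATP site. Lonafarnib inhibits farnesyltransferase, which adds a lipid anchor to proteins such as H-Ras, Rheb and the nuclear lamins. Pre-B cells carry a surrogate light chain on their receptor, depend on interleukin-7 receptor signals and rearrange their immunoglobulin genes with the RAG recombinase. IL-3, present in the medium, is a growth factor of mast cells, basophils and other myeloid cells.

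The pre-B label was checked against marker genes. Mean levels of the 30 measured pre-B identity genes ran from 7.98 to 8.4 log2 units at the nilotinib midpoint, against 8.4 to 8.56 at its start, and from 8.4 to 8.46 at the lonafarnib midpoint, against 8.56 to 8.59 at its start. The surrogate light chain gene Igll1 lay between 10.97 and 12.24 on the 12 arrays. Marker genes of mast cells averaged 8.33 to 9.2 at the nilotinib midpoint and those of macrophages 7.96 to 8.74. Pre-B genes thus did not stand alone on those arrays, and shares of cells were not estimated. The first principal component of the 12 arrays held 68.6% of the variance and placed the nilotinib midpoint arrays at 59.2 to 77.8, the lonafarnib midpoint arrays between them and the starts at -4.13 to -2.94, and the start arrays at -38.7 to -28.8. Array correlations were 0.925 to 0.948 between the nilotinib midpoint and its start, and 0.985 to 0.988 between the lonafarnib midpoint and its start. The nilotinib midpoint arrays were also compressed, their interquartile range averaging 3.03 ± 0.10, against 3.44 ± 0.06 at their start, 3.42 ± 0.06 at the lonafarnib midpoint and 3.51 ± 0.06 at its start (SD, n = 3 each). On compressed arrays bright genes read lower and dim ones higher. Values on arrays scaled to a common median and interquartile range (the common scale) or quantile normalized are given for some counts and calls. Counts printed without them also moved in places.

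Nilotinib changed more genes than lonafarnib, and genes called with both drugs mostly moved the same way. Limma called 5334 of 19938 genes for the difference of changes (26.8% of genes tested), 1832 higher with nilotinib (9.19%) and 3502 lower (17.6%), at a Benjamini-Hochberg adjusted p below 0.05. Of these, 547 were higher (2.74% of genes tested) and 741 lower (3.72%) by at least 1 log2 unit, which is 2-fold. The median difference over all genes was -0.01 log2 units. The nilotinib change was called for 50.1% of genes (22.6% up and 27.5% down) and the lonafarnib change for 10.8% (3.89% up and 6.9% down). The starts of both courses differed at 0 genes by limma, with 2350 at an unadjusted p below 0.05, and a trended robust prior called 17. Values with ± below are limma differences in log2 units with their SE, from 3 arrays a group. Genes called higher or lower below are so in the nilotinib change minus the lonafarnib change, whichever drug moved them. Counts in a gene list stand against the 9.19% higher and 17.6% lower over all genes.

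Among genes called lower, 2543 fell with nilotinib with no call for lonafarnib, 667 fell with both, 72 fell with nilotinib and rose with lonafarnib, and 107 rose with lonafarnib with no call for nilotinib. Among genes called higher, 1567 rose with nilotinib with no call for lonafarnib and 161 rose with both. Both drugs changed 1703 genes in the same direction, and in 1454 of them the nilotinib change was the larger. Of 858 such genes with a nilotinib change of at least 1, the median ratio of the lonafarnib to the nilotinib change was 0.419. These genes were chosen for the size of their nilotinib change, which itself favours a ratio below 1. Across genes both changes had a Pearson correlation of 0.638 and a Spearman correlation of 0.497, and genes are not independent replicates. The scatter of both changes sets the genes against a line of equal change.

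**Figure D1:**
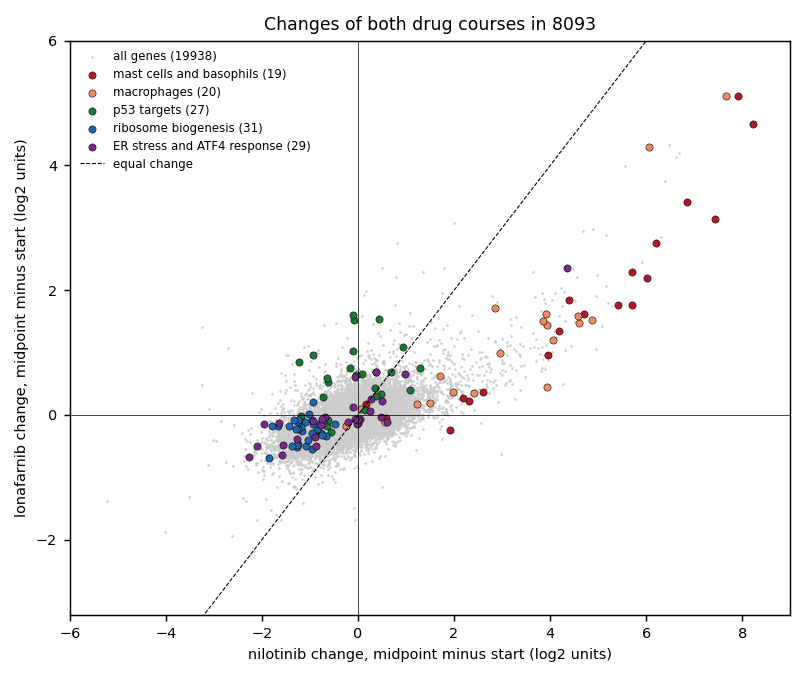
Change from start to midpoint in log2 units with nilotinib (horizontal axis) and with lonafarnib (vertical axis) for 19938 genes in grey and 5 gene lists in colour, each value a difference of means of 3 arrays. The 17 mast cell and 17 macrophage genes called higher lie below the dashed line of equal change, the 14 p53 targets called lower lie above it, and all 31 ribosome biogenesis genes lie at negative nilotinib changes.

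Mast cell genes had the highest median difference of the 35 gene lists, rising with both drugs and further with nilotinib. Of 19 measured genes 17 were called higher and 0 lower, with a median difference of 2.99, against -0.01 over all genes. The nilotinib change was called up for 18 and the lonafarnib change for 13. Mean list levels were 8.33 to 9.2 at the nilotinib midpoint, against 4.03 to 4.15 at its start, and 5.29 to 6.43 at the lonafarnib midpoint, against 3.97 to 4.07 at its start, and 18 of the 19 genes averaged below 5 at the starts. The carboxypeptidase of mast cell granules, Cpa3, read 12.52, 12.78 and 12.56 at the nilotinib midpoint, against 4.73, 4.22 and 5.15 at its start, and 10.43, 9.01 and 9.74 at the lonafarnib midpoint, against 4.67, 4.61 and 4.57 at its start. Its difference was 2.81 ± 0.36 (adjusted p = 1.92e-06), and the nilotinib midpoint arrays lay above every other array. Gata2, a transcription factor of mast cell and progenitor identity, read 7.93, 9.38 and 8.24 at the nilotinib midpoint, against 4.64, 4.59 and 4.49 at its start, and 5.94, 5.36 and 5.36 at the lonafarnib midpoint, against 4.37, 4.89 and 4.53 at its start. That difference was 2.99 ± 0.34 (adjusted p = 2.77e-07), and all 3 nilotinib midpoint arrays lay above all lonafarnib midpoint arrays. The protease Mcpt1 differed by 4.28 ± 0.64 (adjusted p = 1.23e-05), the IgE receptor beta chain Ms4a2 by 3.82 ± 0.46 (adjusted p = 6.71e-07), the side-chain cleavage enzyme Cyp11a1 by 3.94 ± 0.36 (adjusted p = 1.17e-08) and the stem cell factor receptor Kit by 2.84 ± 0.25 (adjusted p = 8.41e-09). Mitf, another mast cell transcription factor, differed by 2.15 (1.91 with nilotinib and -0.24 with lonafarnib). Mcpt8, a basophil protease, was not called at 0.63, nor was Mrgprb1 at 0.01. The lonafarnib midpoint arrays were uneven, Mcpt1 reading 7.41, 4.16 and 5.88 on them.

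Promoters of a pair of these genes are shown because GATA factors bind sites with the letters AGATAA and Gata2 is itself a member of the list. Whether Gata2 acts on the other members was not tested. They are the 250 bases before the start in RefSeq GRCm38.p6, Cpa3 at chr3:20242182-20242431, minus strand, and Ms4a2 at chr19:11623720-11623969, minus strand, with matches on either strand in capitals.
Cpa3: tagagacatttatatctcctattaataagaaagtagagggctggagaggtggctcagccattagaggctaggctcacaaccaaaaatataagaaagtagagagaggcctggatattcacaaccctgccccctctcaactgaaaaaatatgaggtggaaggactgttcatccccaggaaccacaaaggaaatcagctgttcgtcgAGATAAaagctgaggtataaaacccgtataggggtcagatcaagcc
Ms4a2: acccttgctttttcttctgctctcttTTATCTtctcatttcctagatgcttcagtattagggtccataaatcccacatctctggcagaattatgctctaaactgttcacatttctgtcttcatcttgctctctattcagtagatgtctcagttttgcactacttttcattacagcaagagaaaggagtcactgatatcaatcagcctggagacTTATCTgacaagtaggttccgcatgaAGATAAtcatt
Cpa3 held 1 match, beginning 46 bases before the start, and Ms4a2 held 3. Of 16 mast cell genes with a promoter entry 4 held AGATAA (25%), against 11.4% of all 27025. In all, 13 motifs were searched on both strands: the E-box CACGTG, the cell cycle element TTTGAA, the amino acid response core TGATGNAA with its form TGATGCAA and the reverse complement of that form TTGCATCA, the GATA letters TGATAA as well as AGATAA, the STAT spacing TTCNNNGAA, the cyclic AMP element TGACGTCA, the PU.1 letters GAGGAA, the NF-Y letters CCAAT with the related CATTGG, and the ETS core CCGGAAG. Each was set against 35 gene lists and 3 sets of genes by call. The 3 motifs and 4 promoters shown here and below, the promoters out of 18 looked at, were picked after these shares were seen, so the shares carry no test. In the 36 sets with at least 10 promoters, CCAAT and GAGGAA each stood over 15 percentage points above all promoters in 7 sets, CCGGAAG in 4, TGATGNAA in 1 and AGATAA in 0. A match is a description of the letters and not of binding.

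Macrophage and lysosome genes followed. Of 20 macrophage genes 17 were called higher and 0 lower, with a median difference of 2.01. Mean list levels were 7.96 to 8.74 at the nilotinib midpoint, against 5.07 to 5.22 at its start, and 6.05 to 6.86 at the lonafarnib midpoint, against 5.11 to 5.16 at its start. Mrc1, the mannose receptor, read 9.16, 9.75 and 8.86 at the nilotinib midpoint, against 5.39, 5.25 and 5.31 at its start, and 6.7, 5.34 and 5.35 at the lonafarnib midpoint, against 5.62, 5.28 and 5.17 at its start. Its difference was 3.49 ± 0.69 (adjusted p = 0.000339), and 1 lonafarnib midpoint array stood above the other two. The integrin chain Itgam differed by 3.34 ± 0.57 (adjusted p = 6.65e-05) and the lysozyme gene Lyz2 by 2.56 ± 0.76 (adjusted p = 0.0121). Of 31 lysosome and autophagy genes 15 were called higher and 2 lower, led by the granule membrane protein Cd63 at 3.02 ± 0.61 and the protease Ctsd at 1.79 ± 0.35. Quantile normalization gave 18 higher and 0 lower, and the common scale 21 and 0. The 2 lower calls were also lost without replicate 1 or 3 of the lonafarnib midpoint, replicate 3 of its start or replicate 3 of the nilotinib midpoint. Of 26 chemokine and inflammatory cytokine genes 14 were higher and 0 lower, among them Ccl2 at 2.81 ± 0.45 and Il1b at 2.58 ± 0.44. Of 9 genes of MHC class II presentation 4 were higher and 0 lower (5 and 0 after quantile normalization). H2-Aa, a class II chain, read 8.85, 9.1 and 8.71 at the nilotinib midpoint, against 5.3, 5.9 and 5.35 at its start, and 6.2, 6.36 and 5.85 at the lonafarnib midpoint, against 5.61, 6.08 and 5.54 at its start. It differed by 2.98 ± 0.44 (adjusted p = 1e-05), with a lonafarnib change of 0.39 that was not called.

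Markers of other cell types moved less, and their counts stand against 9.19% higher and 17.6% lower over all genes. Of 20 granulocyte genes 5 were higher and 1 lower with a median of 0.3, and the highest were the collagenase Mmp8 (3.28) and the eosinophil genes Prg2 (2.71) and Epx (1.38). Mean granulocyte levels were 4.89 to 5.09 at the nilotinib midpoint, against 4.14 to 4.29 at its start, and 4.25 to 4.36 at the lonafarnib midpoint, against 4.04 to 4.2 at its start. Of 33 fibroblast genes, which would mark the feeder, 11 were higher and 2 lower with a median of 0.36. Fn1, fibronectin, led at 3.89 ± 0.63 (adjusted p = 3.73e-05) and macrophages also make it, while the collagen-binding protein Sparc differed by 1.58 ± 0.23 (adjusted p = 6.94e-06). Timp3, a metalloproteinase inhibitor, went the other way at -1.94 ± 0.22 (adjusted p = 2.64e-07), having changed by 0.81 with nilotinib and 2.75 with lonafarnib. Erythroid and megakaryocyte genes were higher in 5 and lower in 1 of 11, with 2 or 3 higher when any of 6 single arrays was left out (nilotinib midpoint replicate 2, nilotinib start replicates 1 and 3, lonafarnib midpoint replicate 3, lonafarnib start replicates 1 and 2), and T and NK cell genes higher in 0 and lower in 3 of 14 (5 lower on the common scale). The part of such cells in the other differences was not tested.

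**Figure D2:**
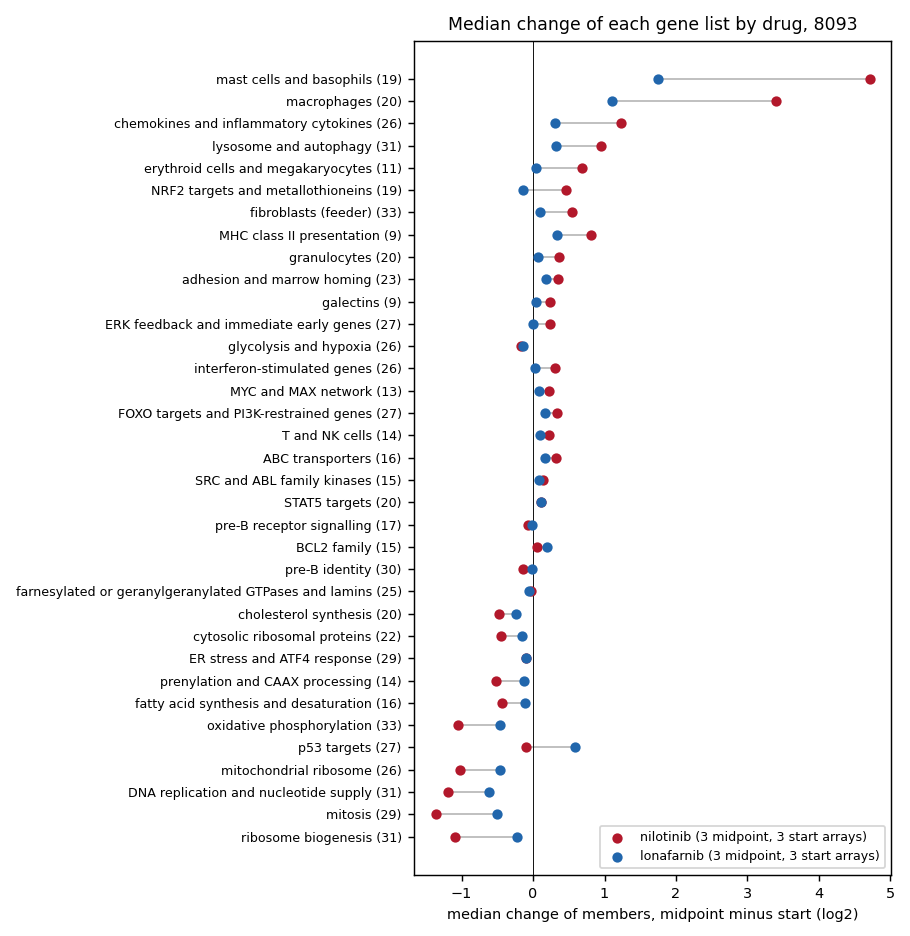
Median change from start to midpoint in log2 units of each gene list with nilotinib (red) and lonafarnib (blue), with the number of measured genes in brackets, ordered by the median of the difference. Mast cell and macrophage lists stand far right with nilotinib, ribosome biogenesis and mitosis lists stand left, and the p53 list is the one with a clearly positive lonafarnib and a near-zero nilotinib median.

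Among pre-B genes Rag1 and Il7r had differences called higher and Rasgrp3 a difference called lower. Rag1 and Il7r fell with lonafarnib, while their nilotinib midpoint arrays overlapped their starts. Of 30 measured identity genes 4 were higher and 5 lower, not far from the 9.19% and 17.6% of all genes, with a median of -0.13, against 5 higher, 2 lower and a median of 0.16 at a common median and interquartile range. Rag1, a subunit of the recombinase, read 9.23, 8.39 and 9.17 at the nilotinib midpoint, against 8.94, 9.28 and 8.75 at its start, and 7.18, 7.07 and 7.61 at the lonafarnib midpoint, against 8.91, 9.15 and 8.87 at its start. It differed by 1.63 ± 0.3 (adjusted p = 0.000164), and the lonafarnib midpoint arrays lay below all others. Il7r, the interleukin-7 receptor chain, read 10.59, 9.88 and 10.56 at the nilotinib midpoint, against 10.54, 10.46 and 10.3 at its start, and 9.03, 8.88 and 9.24 at the lonafarnib midpoint, against 10.57, 10.66 and 10.39 at its start. Its difference was 1.4 ± 0.23 (adjusted p = 4.71e-05), and here too the lonafarnib midpoint arrays were the lowest. Rag2, the other subunit, was not called at -0.15 (-1.31 with nilotinib and -1.15 with lonafarnib).

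Rasgrp3, which loads Ras with GTP in B cells, went the other way and read 4.6, 4.15 and 3.8 at the nilotinib midpoint, against 9.27, 9.54 and 9.44 at its start, and 8.22, 7.69 and 8.08 at the lonafarnib midpoint, against 9.27, 9.6 and 9.26 at its start. It differed by -3.85 ± 0.38 (adjusted p = 3.19e-08), with no overlap between any midpoint group and the starts. Pax5, which maintains B cell identity, differed by 0.99 ± 0.27 (adjusted p = 0.00608) and the kinase gene Blk by 0.58 ± 0.17 (adjusted p = 0.00897). Igll1 differed by -0.85 ± 0.18 (adjusted p = 0.000665), but by -0.34 after scaling to a common median and interquartile range, where it was not called. Of 17 genes of pre-B receptor signalling 4 were higher, with the kinases Syk (0.77) and Prkcb (0.77), and 3 lower, against 5 and 1 on the common scale. Surface genes outside these lists also had differences called lower: Pdcd1, the inhibitory receptor PD-1, differed by -2.75 ± 0.19 (adjusted p = 5.07e-11), Ctla4, another inhibitory receptor, by -2.53 ± 0.22 (adjusted p = 5.76e-09) and Cdh17, a cadherin, by -3.2 ± 0.4 (adjusted p = 1.07e-06). Gem, a small GTPase, differed by -3.73 ± 0.36 (adjusted p = 2.85e-08). Usp17ld, a deubiquitinase, had the most negative value at -4.67 ± 1.11 (adjusted p = 0.0022), but its starts differed by 3.54 and the midpoints alone by -1.13, which was not called.

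Of the genes that p53 activates, more rose with lonafarnib than with nilotinib. Of 27 measured targets 0 were called higher and 14 lower, with a median difference of -0.57. Lonafarnib raised 14 and lowered 0, while nilotinib raised 7 and lowered 11. Of the 14 raised by lonafarnib, 10 had a difference called lower and 4 fell with nilotinib. Eda2r, a TNF receptor family member, read 3.88, 3.91 and 3.93 at the nilotinib midpoint, against 3.89, 3.92 and 4.21 at its start, and 5.72, 5.03 and 5.46 at the lonafarnib midpoint, against 3.97, 3.61 and 3.82 at its start. It differed by -1.7 ± 0.25 (adjusted p = 1.02e-05), and only the lonafarnib midpoint arrays stood apart. Zmat3, an RNA-binding protein, read 6.1, 6.24 and 6.25 at the nilotinib midpoint, against 7.38, 7.29 and 7.58 at its start, and 8.25, 8.17 and 8.3 at the lonafarnib midpoint, against 7.39, 7.29 and 7.5 at its start. Its difference was -2.07 ± 0.17 (adjusted p = 2.39e-09), with the lonafarnib midpoint highest and the nilotinib midpoint lowest of the 4 groups. Mdm2, the ligase that degrades p53, read 8.29, 8.2 and 8.07 at the nilotinib midpoint, against 8.26, 8.39 and 8.4 at its start, and 9.0, 8.68 and 8.77 at the lonafarnib midpoint, against 8.07, 8.17 and 7.96 at its start. That gave -0.91 ± 0.16 (adjusted p = 8.58e-05), and the nilotinib change was not called. The death receptor Tnfrsf10b differed by -1.61 ± 0.23 (adjusted p = 7.87e-06). Not called were Btg2 at 0.01 (0.7 with nilotinib and 0.68 with lonafarnib) and Bbc3, which encodes PUMA, at 0.14 (0.47 with nilotinib and 0.33 with lonafarnib). Cdkn1a was not measured under a symbol of its own.

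Apoptosis regulators of the BCL2 family moved in opposite directions at 3 of 15 measured genes. Bcl2, the survival protein, read 7.51, 7.65 and 7.21 at the nilotinib midpoint, against 8.97, 8.89 and 9.09 at its start, and 9.83, 9.63 and 9.61 at the lonafarnib midpoint, against 9.14, 8.97 and 9.05 at its start. It differed by -2.16 ± 0.17 (adjusted p = 1.51e-09), and no array of one midpoint overlapped another group. Bcl2l11, which encodes the death promoter BIM, read 8.5, 8.4 and 8.02 at the nilotinib midpoint, against 9.02, 9.17 and 8.85 at its start, and 9.58, 9.59 and 9.6 at the lonafarnib midpoint, against 8.89, 9.11 and 8.95 at its start. Its difference was -1.31 ± 0.18 (adjusted p = 3.19e-06), again with both midpoints on opposite sides of the starts. Pmaip1, which encodes NOXA, differed by -1.22 (-0.64 with nilotinib and 0.59 with lonafarnib). Bad (0.9) and Hrk (0.72), both death promoters, were called higher, but Bad by 0.29 and without a call between the midpoints alone (adjusted p = 0.164). The list counts were 2 higher and 3 lower, not far from the 9.19% and 17.6% of all genes, and 4 and 3 on the common scale. Not called were Mcl1 at 0.32 and Bcl2l1 at -0.07. Over all genes 79 were called in opposite directions, all with the difference called. Epcam, an adhesion molecule, was among the 72 that fell with nilotinib and rose with lonafarnib and differed by -2.47 ± 0.31 (adjusted p = 1.12e-06). Gch1, the first enzyme of tetrahydrobiopterin synthesis, was among the 7 that did the reverse, at 1.21 ± 0.24 (adjusted p = 0.0004).

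**Figure D3:**
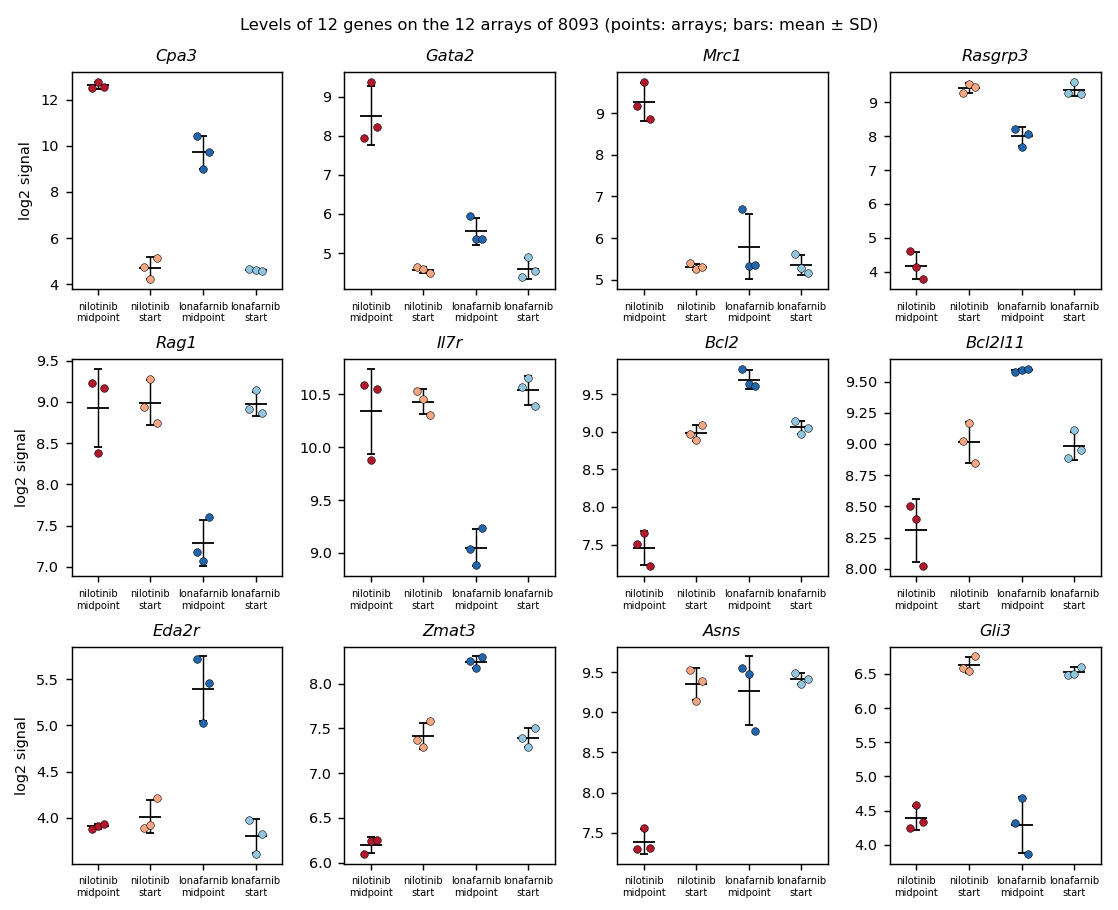
Log2 signal of 12 genes on each of the 12 arrays, from left to right nilotinib midpoint, nilotinib start, lonafarnib midpoint and lonafarnib start; points are arrays and bars the mean ± SD of 3 arrays. Rag1 and Il7r are low at the lonafarnib midpoint alone, Bcl2, Bcl2l11 and Zmat3 lie on opposite sides of the starts, and Gli3 is low at both midpoints.

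Targets of the pathways downstream of BCR-ABL showed no common direction. Of 20 STAT5 targets 4 were higher and 4 lower, against 9.19% and 17.6% of all genes, with a median of -0.02. Counts were 4 and 3 after quantile normalization and 5 and 3 on the common scale. Cish, a feedback inhibitor of STAT5, rose with both drugs and was not called, at -0.3 (0.73 with nilotinib and 1.03 with lonafarnib). Pim2, a survival kinase, differed by -1.45 ± 0.16 (adjusted p = 1.52e-07), having changed by -0.22 with nilotinib and 1.23 with lonafarnib. Ccnd2, cyclin D2, differed by -0.51 ± 0.15 (adjusted p = 0.0119), but by 0.06 on the common scale and without a call after quantile normalization (-0.43, adjusted p = 0.0858). Of 27 ERK feedback and immediate early genes 6 were higher and 6 lower, against 2 and 6 without nilotinib midpoint replicate 2. Spred2, which restrains Ras-ERK signalling, differed by -1.55 ± 0.29 (adjusted p = 0.000165) and Etv5, an ERK-induced transcription factor, by -1.33 ± 0.19 (adjusted p = 5.72e-06), while Ier3, an immediate early gene, differed by 2.05 ± 0.34 (adjusted p = 4.86e-05). Dusp6, the ERK phosphatase, was not called at 0.21 ± 0.22. Of 27 FOXO targets 7 were higher and 6 lower, against 10 and 2 after quantile normalization and 7 and 3 on the 12 arrays alone. Single arrays moved the lower count too, to 1 without nilotinib midpoint replicate 3, 2 without lonafarnib start replicate 3 and 3 without lonafarnib midpoint replicate 1 or 3. In this list was Txnip, an inhibitor of glucose uptake, at 0.94 ± 0.16 (adjusted p = 4.91e-05). Abl1 was not called at 0.04 ± 0.13, with a 95% interval of -0.22 to 0.31, but was called at 0.41 on the common scale (adjusted p = 0.048).

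Most measured genes of ribosome biogenesis, mitosis and replication had differences called lower, and bright genes in general often did. In the fifth of all genes brightest at the starts, from 7.92 log2 units, 1896 of 3988 were called lower and 153 higher. The mean start levels of these lists lay in that range. Of 31 ribosome biogenesis genes 0 were higher and 26 lower, with a median difference of -0.87. Quantile normalization gave 25 lower and the common scale 22. Nilotinib lowered all 31 and lonafarnib 8. Utp4, part of the small subunit processome, read 8.86, 8.58 and 8.59 at the nilotinib midpoint, against 10.41, 10.46 and 10.51 at its start, and 10.22, 10.08 and 10.1 at the lonafarnib midpoint, against 10.35, 10.38 and 10.18 at its start. It differed by -1.61 ± 0.15 (adjusted p = 1.17e-08), and the nilotinib midpoint arrays lay below all others. Dkc1, the pseudouridine synthase, differed by -1.49 ± 0.17 (adjusted p = 3.77e-07). Of 29 mitosis genes 26 were lower and 0 higher with a median of -0.73, led by Cenpi (-1.55), a centromere protein, and the checkpoint kinase Bub1 (-1.34). The lower count was 22 after quantile normalization and 24 on the common scale. Of 31 replication genes 20 were lower and 0 higher, led by the clamp loader subunit Rfc4 (-1.53) and the helicase subunit Gins1 (-1.43). Replication counts were 15 lower and 0 higher after quantile normalization, and 16 and 0 on the common scale. Lonafarnib lowered 20 of the 29 and 27 of the 31, and nilotinib all of both. Mki67, a proliferation marker, was not called at 0.09 ± 0.17.

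The Utp4 promoter is shown because CCGGAAG, letters bound by ETS factors, was more frequent in genes called lower. It lies at chr8:106893390-106893639, plus strand, in RefSeq GRCm38.p6, with matches on either strand in capitals.
Utp4: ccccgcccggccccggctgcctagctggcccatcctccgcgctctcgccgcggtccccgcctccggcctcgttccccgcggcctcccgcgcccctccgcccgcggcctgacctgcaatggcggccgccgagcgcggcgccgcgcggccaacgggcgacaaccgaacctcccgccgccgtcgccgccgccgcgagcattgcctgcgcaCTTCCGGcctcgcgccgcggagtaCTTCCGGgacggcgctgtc
It held 2 matches. The motif was in 20.2% of 2852 promoters of genes called lower, 4.54% of 1410 of genes called higher and 9.1% of 11352 of genes not called, and in 7.83% of all. Bright genes made up most of those called lower, and brightness and base composition were not matched.

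Counts for oxidative phosphorylation and cytosolic ribosomal protein genes depended on the scaling. Of 33 oxidative phosphorylation genes 19 were lower and 0 higher, with a median of -0.53, against 10 lower after quantile normalization and 9 at a common median and interquartile range. Cyc1, cytochrome c1, differed by -1.0 ± 0.14 (adjusted p = 3.42e-06). Of 26 mitochondrial ribosome genes 18 were lower and 0 higher, and 16 and 0 under either other scaling. Of 22 cytosolic ribosomal proteins 6 were lower and 0 higher with a median of -0.28, which flipped to 3 higher, 0 lower and a median of 0.28 at a common median and interquartile range. With all genes split into 5 equal bins by brightness, the median difference from the dimmest to the brightest bin was 0.04, 0.21, 0.18, -0.24 and -0.40. In the same order 101, 38, 262, 1205 and 1896 genes were called lower, and 262, 531, 621, 265 and 153 higher. The mean start levels of the oxidative phosphorylation and cytosolic ribosomal protein lists lay in the brightest bin. The plot of list medians under 3 scalings shows which of 9 lists kept their side of zero. Among lists not plotted, medians of pre-B identity, pre-B receptor signalling, STAT5 targets, the BCL2 family and T and NK cells changed sign on the common scale.

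**Figure D4:**
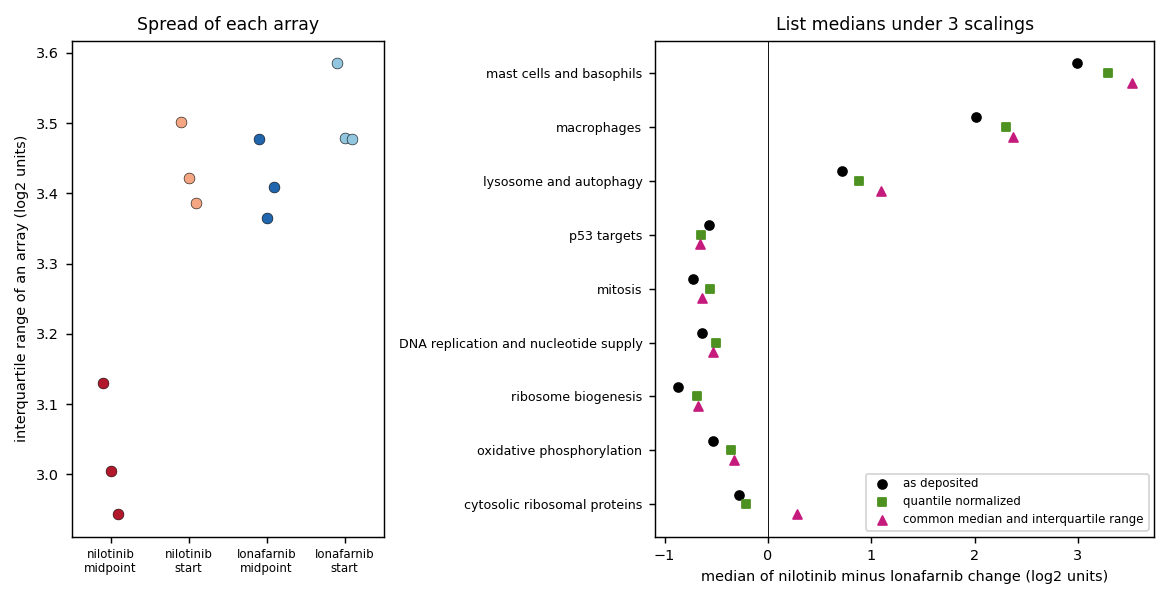
Left, the interquartile range of log2 signal of each of the 12 arrays by group; right, the median difference of changes of 9 gene lists in log2 units as deposited, after quantile normalization and at a common median and interquartile range. The nilotinib midpoint arrays have the lowest ranges, and of the 9 lists the cytosolic ribosomal proteins alone change sign.

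Among genes that ATF4 controls, 3 of amino acid synthesis had differences called lower. Of 29 genes of the ER stress and ATF4 response 2 were higher and 11 lower, with a median of -0.32, against 5 higher and 9 lower at a common median and interquartile range. Asns, asparagine synthetase, read 7.3, 7.56 and 7.31 at the nilotinib midpoint, against 9.53, 9.13 and 9.39 at its start, and 9.55, 9.47 and 8.77 at the lonafarnib midpoint, against 9.49, 9.35 and 9.41 at its start. It differed by -1.81 ± 0.25 (adjusted p = 4.24e-06), and the nilotinib midpoint arrays lay below all others. The serine synthesis enzymes Phgdh and Psat1 differed by -1.61 ± 0.2 (adjusted p = 7.75e-07) and -1.58 ± 0.16 (adjusted p = 4.19e-08). Slc7a11, the cystine transporter, went the other way at 1.99 ± 0.52 (adjusted p = 0.00511). The Asns promoter is shown for its match to TGATGNAA, the core of the element that ATF4 and C/EBP factors bind. It lies at chr6:7693210-7693459, minus strand, in RefSeq GRCm38.p6.
Asns: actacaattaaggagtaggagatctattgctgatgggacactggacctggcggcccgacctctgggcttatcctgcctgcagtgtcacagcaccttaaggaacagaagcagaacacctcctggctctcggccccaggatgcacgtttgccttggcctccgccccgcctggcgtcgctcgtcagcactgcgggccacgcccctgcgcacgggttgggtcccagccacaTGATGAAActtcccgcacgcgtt
Its match, in capitals, begins 23 bases before the start. Of 25 list genes with a promoter entry 7 held the motif (28%), against 3.91% of all. The 7 did not move together: Asns and Gars were called lower, Slc7a11 higher, and Atf3, Vldlr, Herpud1 and Chac1 were not called. CCAAT was in 72% of the same promoters, against 37.5% of all.

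Genes closest to the target of lonafarnib were mostly not called, which also holds for all genes, 26.8% of which were called. Fntb, the farnesyltransferase beta subunit, was not called at -0.43 ± 0.18 (adjusted p = 0.0786), but was on the common scale (-0.52, adjusted p = 0.0355), after quantile normalization (-0.51, adjusted p = 0.038) and without dim genes (adjusted p = 0.0491). Of 14 prenylation and CAAX processing genes 0 were higher and 5 lower, against 9.19% and 17.6% of all genes. The lower count was 3 without nilotinib midpoint replicate 3 and 8 without dim genes. Rabggtb, a subunit of the enzyme that adds geranylgeranyl lipids to Rab proteins, led at -1.3 ± 0.17 (adjusted p = 1.48e-06). Of 25 prenylated GTPases and other substrates 1 was higher and 6 lower, not far from the 9.19% and 17.6% of all genes. The common scale gave 4 and 4, and leaving out nilotinib midpoint replicate 1 gave 3 and 5. Lower were, among others, the phosphatase Ptp4a3 at -1.19 ± 0.14 (adjusted p = 6.71e-07), having changed by -0.6 with nilotinib and 0.6 with lonafarnib. Rhob, which carries either lipid, was not called at -0.06 ± 0.18. Of 20 cholesterol synthesis genes 0 were higher and 5 lower, against 1 and 3 after quantile normalization and 3 and 5 on the common scale, and Hmgcs1, the synthase at the head of the pathway, was not called at -0.17 ± 0.19. Of 16 fatty acid synthesis genes 2 were higher and 8 lower, against 3 and 5 after quantile normalization and 2 and 4 on the common scale, with the elongase Elovl6 at -0.93 ± 0.15 (adjusted p = 3.86e-05) and malic enzyme Me1 at 1.35 ± 0.22 (adjusted p = 4.51e-05). Of 19 NRF2 targets and metallothioneins 8 were higher and 2 lower (11 and 1 on the common scale), led by heme oxygenase Hmox1 at 2.8 ± 0.53 (adjusted p = 0.000241).

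Some genes changed alike. The rule was that both changes be called and be at least 1 log2 unit in the same direction. Their difference had to be not called, with a 95% interval within 1 log2 unit either way. By this rule, with predicted genes, small RNAs, receptor segments and short symbols left out, 14 genes rose and 13 fell. Gli3, a Hedgehog transcription factor, read 4.24, 4.58 and 4.34 at the nilotinib midpoint, against 6.59, 6.54 and 6.76 at its start, and 4.32, 4.68 and 3.87 at the lonafarnib midpoint, against 6.49, 6.5 and 6.61 at its start. The difference was 0.0 ± 0.24, with a 95% interval of -0.49 to 0.5, and both midpoints lay below both starts. Lin28b, an RNA-binding protein of fetal progenitors, changed by -2.17 with nilotinib and -2.18 with lonafarnib, with an interval of -0.45 to 0.46. The mitotic kinase Plk1 changed by -1.3 with nilotinib and -1.19 with lonafarnib, and Ndrg2, a stress-linked gene, by 1.74 with nilotinib and 1.95 with lonafarnib.

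The same difference of changes was taken in Bin-2, the study's other BCR/ABL pre-B line, of mixed genetic background, at 50 nM nilotinib and 0.25 µM lonafarnib, both on day 3. Limma called 295 genes there (1.48%), and the difference between lines was called for 4055 genes (20.3%). Of 19 mast cell genes 16 were called between lines, with a Bin-2 median of 0.14, and of 20 macrophage genes 0 were, with a Bin-2 median of 0.98. Of 27 p53 targets 8 were. In Bin-2 the compressed arrays were those of the lonafarnib midpoint (mean interquartile range 3.16 ± 0.10, against 3.45 ± 0.02 at the nilotinib midpoint), the other drug than in 8093. Viability on the labels was 5 to 10% at both Bin-2 midpoints, against 5 to 10% with nilotinib and 20% with lonafarnib in 8093. Dose, day and viability differ between the lines and cannot be told apart from the line.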

How the data were processed

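The deposited values were log2 probeset signals that the authors had normalized before deposition. The log2 scale was read from the values, which ran from 1.02 to 14.4. Partek is named in the submitters' processing notes, with version and role not given in the sources used here. Trizol RNA was turned into biotinylated cRNA for hybridization, per the labels. Doses, days and viability come from the labels, which give lonafarnib in mM in one place and in µM in another, and µM is printed.

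Of 35557 probesets 21789 had 1 gene symbol, 1621 had several and 12147 were not listed. The probeset of highest mean over 34 arrays stood for each of 19938 genes. Limma 3.58.1 in R 4.3.3 estimated 12 group means from all 34 arrays, and p-values were two-sided and adjusted by Benjamini-Hochberg over 19938 genes. The number of arrays limits the precision. The 35 gene lists and the members were chosen with earlier results of these data known, and lists carry no test. Named were the 12 genes of largest difference each way among called genes whose arrays did not overlap, up to 6 each way with opposite calls, up to 6 each way changed alike, up to 6 per list and 28 fixed genes. Predicted genes, small RNAs, receptor segments and short symbols were left out. Further list members (Mitf, Mcpt8, Mrgprb1, Rag2, Btg2, Bbc3, Mcl1, Bcl2l1, Gars, Atf3, Vldlr, Herpud1 and Chac1) were chosen after their values were seen. In data simulated with independent normal noise, 67, 67 and 66 of 19938 genes were changed by 1.5-fold, 2-fold and 4-fold and no others. The fit recovered 16.4%, 76.1% and 98.5% of them, with 10 false calls among the unchanged genes. In the real data 5334 genes were called, so the cut-off differs and these rates do not carry over directly. Promoters were read from RefSeq GRCm38.p6 with pandas 2.3.3, and 13 motifs were searched. Same-numbered arrays of a course did not deviate together (correlations 0.0584, 0.0275 and 0.0217 with nilotinib, 0.141, 0.0901 and -0.0489 with lonafarnib), so arrays were not paired. Alternatives were the 12 arrays alone, 2 other scalings, another prior, no dim genes (mean below 5), other uses of probesets, a replicate block, the midpoints compared directly and each array left out.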

Additional observations from a re-analysis of the deposited data

Results flagged for a closer look

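The nilotinib minus lonafarnib difference of changes was itself different between 8093 and Bin-2 at 4055 genes, by limma's test of 8093 minus Bin-2. Among the 24 genes of largest difference in 8093, 20 were called. Higher in 8093 than in Bin-2 were Mcpt1 by 3.92, Cyp11a1 by 3.84, Fn1 by 3.99, Ms4a2 by 3.66, Papss2 by 4.36, Gzmb by 3.33, Slc18a2 by 3.52, Mcpt2 by 3.41, Alox5 by 2.95, C3ar1 by 2.82 and F13a1 by 2.71 log2 units. Their own differences in Bin-2 ran from -0.58 (Papss2) to 0.74 (F13a1). Lower in 8093 were Usp17ld at -6.09, Rasgrp3 at -4.81, Gem at -2.55, Pdcd1 at -3.04, Ctla4 at -3.08, Tmem119 at -2.62, Mfsd2a at -1.98, B3galt5 at -2.43 and Pvt1 at -1.32. Rasgrp3 differed by 0.96 ± 0.38 in Bin-2, opposite in sign to its value in 8093, but was not called there. These genes were chosen for their size in 8093, which favours a larger value there. The compressed arrays belonged to the nilotinib midpoint in 8093 and to the lonafarnib midpoint in Bin-2, and their part in these values was not tested.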

How the results depend on the processing

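The count of 5334 genes called for the difference of changes was 4939 on the 12 arrays alone, 4676 after quantile normalization and 5510 at a common median and interquartile range. The share called higher was 34.3% as deposited and 44.1% after quantile normalization. When every probeset was tested 8070 were called, 3074 of them higher and 2825 at least 2-fold, with 15864 for the nilotinib change and 6218 between lines, where more features were tested. Midpoints compared directly, without their starts, gave 8209 genes, 3244 of them higher. With the replicate number as a block 5028 were called, and the block moved none of the counts over all genes for the difference, either drug, the starts or the lines by over 1.5 times. Leaving out each array in turn gave 4311 to 5759 genes for the difference, 1409 to 2103 higher, 2900 to 3656 lower, 1166 to 1613 at least 2-fold, 8621 to 10007 for nilotinib, 1123 to 2286 for lonafarnib and 3367 to 4565 between lines. Replicate 1 of the lonafarnib start (1123 without it) and replicate 3 of its midpoint (1252 without it) moved that count by over 1.5 times. Between starts it was 0 to 198, the 198 without nilotinib start replicate 1, and 4 on the 12 arrays alone, 17 with a trended robust prior and 12 without dim genes. At a common median and interquartile range Socs2 (0.51), Ccnd2 (0.062) and Rps6 (0.044) changed sign, and the cause was not tested. Of genes called under neither scaling, Myc (0.25), Hmgcs1 (0.062), Plk1 (0.045), Ndrg2 (0.08), Gli3 (-0.24) and Lin28b (-0.25) also did. Pf4, Ltf, Nkg7 and Fos lost their calls when some single arrays were left out, and Pf4 also under the block (adjusted p = 0.0701).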

Other observations

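Other gene groups gave mixed values, and their counts stand against 9.19% higher and 17.6% lower over all genes. Of 26 glycolysis and hypoxia genes 4 were higher and 4 lower, with the aldolase Aldoc at 0.98 ± 0.28 and the prolyl hydroxylase Egln3 at -0.99 ± 0.2, and quantile normalization gave 7 and 3, the common scale 9 and 3, and leaving out nilotinib midpoint replicate 2 gave 1 and 6. Of 23 adhesion and homing genes 7 were higher and 1 lower (11 and 1 at a common median and interquartile range), with Cd34, a progenitor sialomucin, at 2.97 ± 0.33 and the hyaluronan receptor Cd44 at 2.15 ± 0.41. Of 9 galectin genes 2 were higher and 2 lower: Lgals3 differed by 3.05 ± 0.49 and Lgals9 by -0.62 ± 0.14, but on the common scale Lgals9 was not called (-0.25, adjusted p = 0.258) and the counts were 3 and 0. Of 16 ABC transporters 4 were higher and 1 lower, with the cholesterol exporter Abca1 at 1.68 ± 0.53, and it was not called without nilotinib midpoint replicate 2 (1.15), which gave 2 and 2, or without lonafarnib midpoint replicate 3 (1.51). Of 26 interferon-stimulated genes 2 were higher and 3 lower (4 and 3 on the common scale), with Oas2 at 1.34 ± 0.35 and Gbp3 at -0.98 ± 0.18. Of 13 genes of the MYC and MAX network 3 were higher and 1 lower (1 and 1 without lonafarnib midpoint replicate 3 or start replicate 2), Max at -0.8 ± 0.15, and Myc was not called at -0.13 ± 0.21. Of 15 SRC and ABL family kinases 2 were higher and 2 lower, against 4 and 0 after quantile normalization and 6 and 1 on the common scale.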
